A study of Mus musculus with 6 samples.

Results

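The autophagy machinery was examined as 40 genes of autophagosome initiation, ATG8 conjugation and cargo selection, named by symbol in a rule that holds no threshold on the values, though the list was drawn up with earlier results of these data known. All 40 were among the 41079 genes of the count table, and all 40 were among the 14618 genes with enough counts to test. RNA-seq libraries were made from primary microglia of C57Bl/6N mice aged 1 to 3 days, 3 of control cultures and 3 of stimulated cultures. Control cultures were kept in serum-free DMEM/F12. Stimulated cultures received the cytokines TGFbeta, IL34 and CX3CL1 at 100 ng/mL each, to which the methods add cholesterol, insulin-transferrin-selenium and a collagen IV coating, so that 1 supplement cannot be told apart from another. Both groups came from glial flasks that were seeded with pooled neonatal brains, fed with medium conditioned by the fibroblast line L-929 and shaken to release the microglia, and both met serum for a short time while they adhered. No transgene or deletion is named for either group, and the time these cells spent in their final medium is not given in the sources used here. The libraries are described as biological replicates, but nothing ties each to a separate litter or flask, so p-values measure the spread between these libraries.

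Autophagy encloses cytoplasm in a double membrane and delivers it to the lysosome. The ULK kinase complex starts the process, a class III PI3-kinase complex marks the membrane, lipid transfer proteins and ATG9 vesicles enlarge it, and the ATG12 and ATG8 conjugation systems attach ATG8 proteins (the LC3 and GABARAP families) to it, where cargo receptors bind. In microglia this machinery takes part in the turnover of mitochondria and ingested material and in the restraint of inflammatory signalling. Transcript levels do not measure autophagic flux, and several of these proteins are themselves degraded by autophagy.

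Among the autophagy genes, those of the mitophagy receptors Bnip3 and Bnip3l, the PI3P-binding protein Wipi1, the kinase Ulk2 and the lipid transfer protein Atg2b rose by at least 0.5 in log2 fold change (log2FC, stimulated over control), while the protease Atg4a and the receptor Sqstm1 fell by at least that much. In all, 8 of the 40 genes rose and 5 fell in edgeR's quasi-likelihood test when the Benjamini-Hochberg adjusted p had to be under 0.05, and 27 were not called. Without control replicate 2, 4 rose and 4 fell. Over all genes tested, 14.7% rose and 15.2% fell, or 29.8% in either direction, against 32.5% of the autophagy genes, so their share was near that of all genes. Past a log2FC of 0.5 in size, 5 autophagy genes rose and 2 fell, where 11.1% and 10.7% of all genes tested did so. Every stimulated library lay above every control library in 15 of the 40 genes and below in 8, against 21.4% and 22.5% of all genes tested. The median log2FC of the 40 genes was 0.081, beside 0.0079 over all genes tested, and 33 of the 40 had a log2FC under 0.5 in size.

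**Figure D1:**
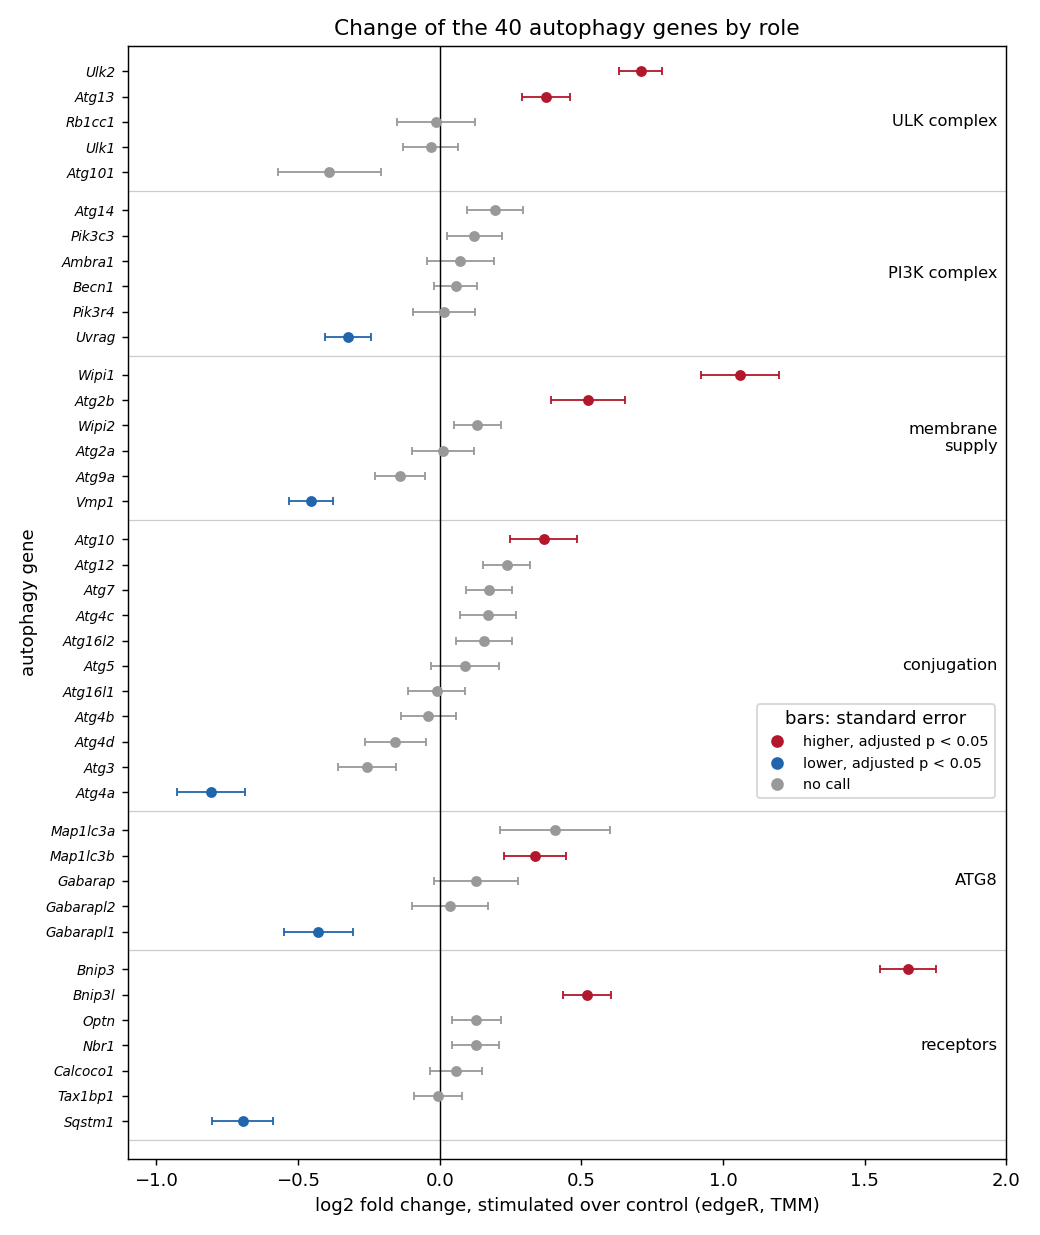
Log2 fold change of each of the 40 autophagy genes, stimulated over control (x axis, edgeR with TMM scaling), grouped by role; points are estimates from 3 libraries a group and bars are standard errors. Genes called higher and lower stand side by side within most roles, from Bnip3 at 1.65 to Atg4a at -0.81.

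The libraries held between 20628148 and 27261839 counts, and replicates of a group varied with a coefficient of variation of 0.128. The 10 most abundant genes took 14.3% to 17.2% of the counts in control and 19.0% to 24.1% in stimulated libraries, and the 40 autophagy genes took 0.335% to 0.341% and 0.299% to 0.306%. CPM values (counts relative to the library's total) were therefore scaled with TMM factors, which correct for such shifts in composition, and with library size alone the median log2FC of all genes moved from 0.0079 to -0.12. Of the genes called, 49.1% were higher with TMM and 32.3% with library size alone, and for the autophagy genes the counts became 4 higher and 8 lower. The 8 microglia and macrophage markers summed to 7977 to 8606 CPM in control and 12441 to 15940 CPM in stimulated libraries, with 5 of the 8 higher and Csf1r and Aif1 lower. Markers of neurons (6 genes) summed to 3.07 to 4.72 and 5.30 to 6.34 CPM, those of astrocytes (5 genes) to 32.1 to 35.3 and 21.4 to 25, those of oligodendrocytes (6 genes) to 135 to 151 and 164 to 202, and those of fibroblasts (5 genes) to 21.3 to 27.8 and 22 to 78.7. Nefl alone of the neuron markers was called, higher, with means of 0.23 and 1.14 CPM. Mbp alone of the oligodendrocyte markers was called, also higher, with means of 94.2 and 119 CPM. Among the astrocyte markers Aldh1l1 alone was called, from a mean of 16.5 to 4.64 CPM, while Gfap had means of 4.18 and 4.68 CPM and Gja1 of 5.64 and 7.94 CPM. The highest fibroblast sum is that of stimulated replicate 3, with Col1a1 at 31.5 CPM there and at 11.6 and 8.77 CPM in the other stimulated libraries. Of these 22 markers Snap25 had 0 counts in each stimulated library and none had 0 in all 6, and the part of other cells in the results was not tested. In bulk RNA, fewer cells of a type and less RNA per cell cannot be told apart.

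Promoter windows are shown for the 2 genes that rose most and the 2 that fell most, so that they can be read beside their values. Among the 40 symbols, 33 matched a RefSeq promoter on GRCm38.p6, giving 39 windows of 300 bases, from 250 bases before the annotated start to 50 after it. Capitals mark ACGTG and GCGTG, the cores bound by hypoxia-inducible factors, searched on both strands, so that CACGT and CACGC are the same motifs read from the other strand. The E-box CACGTG holds ACGTG on both strands and counts as 2 matches. The windows are chr7:138909457-138909756 (minus strand) for Bnip3, chr11:109611340-109611639 (minus) for Wipi1, chrX:140953595-140953894 and chrX:140956657-140956956 (plus) for the 2 annotated starts of Atg4a, and chr11:50210771-50211070 (minus) for Sqstm1.
Bnip3: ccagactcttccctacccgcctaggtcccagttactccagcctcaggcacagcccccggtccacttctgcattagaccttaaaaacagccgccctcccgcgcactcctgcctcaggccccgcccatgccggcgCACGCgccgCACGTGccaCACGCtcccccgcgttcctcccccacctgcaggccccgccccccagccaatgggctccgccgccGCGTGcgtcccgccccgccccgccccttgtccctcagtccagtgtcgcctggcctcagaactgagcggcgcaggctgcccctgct
Wipi1: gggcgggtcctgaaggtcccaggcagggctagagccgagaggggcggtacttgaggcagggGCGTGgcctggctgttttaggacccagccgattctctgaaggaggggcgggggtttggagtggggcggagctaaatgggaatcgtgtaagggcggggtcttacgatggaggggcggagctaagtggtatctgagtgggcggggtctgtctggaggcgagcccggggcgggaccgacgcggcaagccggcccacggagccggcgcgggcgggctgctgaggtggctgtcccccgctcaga
Atg4a, upstream start: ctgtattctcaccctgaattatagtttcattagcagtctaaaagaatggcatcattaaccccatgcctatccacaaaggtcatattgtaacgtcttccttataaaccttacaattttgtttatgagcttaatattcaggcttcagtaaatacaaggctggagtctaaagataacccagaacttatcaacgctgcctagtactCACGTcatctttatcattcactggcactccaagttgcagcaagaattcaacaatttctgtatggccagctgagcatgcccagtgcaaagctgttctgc
Atg4a, downstream start: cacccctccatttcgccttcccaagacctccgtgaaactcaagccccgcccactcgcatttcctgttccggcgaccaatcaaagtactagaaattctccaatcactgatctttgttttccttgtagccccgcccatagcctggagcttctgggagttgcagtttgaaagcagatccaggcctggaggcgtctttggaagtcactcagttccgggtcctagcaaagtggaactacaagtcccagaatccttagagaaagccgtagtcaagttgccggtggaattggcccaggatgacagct
Sqstm1: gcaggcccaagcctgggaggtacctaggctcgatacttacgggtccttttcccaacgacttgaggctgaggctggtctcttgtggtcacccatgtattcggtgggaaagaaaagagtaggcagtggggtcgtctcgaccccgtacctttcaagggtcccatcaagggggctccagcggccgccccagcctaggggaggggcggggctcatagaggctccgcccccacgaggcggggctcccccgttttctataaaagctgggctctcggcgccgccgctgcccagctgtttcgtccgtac
Bnip3 held 5 matches in a window of 71.7% GC, with the E-box at -108 from the start, CACGC at -117 and -99 and GCGTG at -35. Wipi1 held 1 match, at -189, the upstream window of Atg4a held 1, at -48, and neither the downstream window of Atg4a nor that of Sqstm1 held any. At least 1 match stood in 33 of the 39 windows (84.6%) and in 59.5% of the 13990 promoters of tested genes, and 5 or more stood in 2.94% of the latter, whose median GC content was 60.0%. Map1lc3b, the gene of LC3B, also held 5. CACGTG alone was found in 5 of the 39 windows (12.8%) and in 9.56% of the promoters of tested genes, TCACGTGA, which holds the E-box and is the core of the TFEB site, in 1 (2.56%) and in 1.74%, and TGACNNNGC, the NRF2 element, in 7 (17.9%) and in 14.1%. The palindromic SMAD element GTCTAGAC was in 0 of the 39 windows and in 0.229% of the promoters of tested genes. At that share few or none were due in 39 windows, and no other SMAD motif was searched. The motif counts are matches of letters in a window, and no binding was measured.

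The ULK complex receives the signal to start autophagy, and of its 5 genes 2 rose, Ulk2 and Atg13. Ulk2, which encodes a kinase closely related to ULK1 and lies on chromosome 11 of GRCm39 from 61665841 to 61746170, had 92.9, 94.2 and 89.1 CPM in control libraries 1 to 3 and 153, 151 and 148 CPM in stimulated libraries 1 to 3. The 2 groups were far apart beside the spread within each. Its log2FC was 0.71 (standard error, SE, 0.08), at an adjusted p of 7.4e-05 (edgeR's quasi-likelihood test). Ulk1 itself had 66.2 ± 4.27 and 64.8 ± 6.16 CPM (SD, n = 3 each), with overlapping libraries and a log2FC of -0.03. FPKM values divide a count by the length of the gene and the size of the library, so they allow levels to be compared between genes. The gene lengths used for them are not given in the sources used here. The FPKM of Ulk2 over that of Ulk1 in the same library was 0.70, 0.78 and 0.758 in control and 1.17, 1.21 and 1.37 in stimulated libraries, so the ratio rose past 1. In raw counts Ulk2 was above Ulk1 in every library, also in control library 1 with 2125 and 1625. Such a ratio does not depend on how libraries are scaled. Whether it lies below or above 1 depends on the gene lengths used, so it does not settle which gene is more abundant. The gene pairs given as ratios were chosen after their values were seen, and their ratios are descriptions without a test.

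Atg13, the regulatory subunit that binds both kinases, had a log2FC of 0.37 (SE 0.09), with 47.9 to 53.9 CPM in control and 63.2 to 69.0 CPM in stimulated libraries. It shares 3412 of its 10388 exon bases with Arhgap1 on the other strand, a gene with 1.45 times its mean count and a log2FC of -0.41. Its call was lost with library size alone, in the 3 limma fits and without control replicate 2, and its adjusted p went from 0.0010 (DESeq2) to 0.069 (edgeR with library size alone) over the 16 alternatives. Atg101, the subunit that stabilizes ATG13, had 16.6, 17.1 and 19.2 CPM in control and 9.47, 16.5 and 14.4 CPM in stimulated libraries. All 3 stimulated libraries were below the controls, by little in stimulated library 2. The log2FC was -0.39 (SE 0.18), at an adjusted p of 0.14 (edgeR's quasi-likelihood test). It was called in 6 of 16 alternatives, over which the adjusted p went from 0.026 without stimulated replicate 2 to 0.32 without control replicate 3, both by edgeR. Rb1cc1, which encodes the scaffold FIP200, had a log2FC of -0.01.

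Of the 6 genes listed here for the class III PI3-kinase complex, which makes the lipid PI3P on the forming membrane, 1 was called, Uvrag. Uvrag encodes the subunit that takes the place of ATG14 in the complex of endosomes and late autophagosomes. Its levels were 62.1, 58.7 and 59.3 CPM in control and 45.4, 49.4 and 49.1 CPM in stimulated libraries. The groups did not overlap. Its log2FC was -0.32 (SE 0.08), at an adjusted p of 0.014 (edgeR's quasi-likelihood test). Over the 16 alternatives the adjusted p went from 0.0034 (limma) to 0.065 (edgeR without control replicate 1). Atg14, the subunit of the autophagy-specific complex, had 22.5, 19.3 and 19.9 CPM in control and 24.1, 23.5 and 22.9 CPM in stimulated libraries. Although the groups did not overlap, control library 1 lay close to the stimulated libraries, and the log2FC of 0.19 (SE 0.10) had an adjusted p of 0.18 by edgeR's quasi-likelihood test. The catalytic subunit Pik3c3, its partner Pik3r4, the core subunit Becn1 and its activator Ambra1 had log2FC between 0.02 and 0.12. None of these 6 genes rose, at an unadjusted p under 0.05 by edgeR 0 did, and DESeq2 called 0 higher. Nrbf2, a further subunit of the complex that is listed with other core genes below, was called higher, with a log2FC of 0.70.

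Of the 6 genes of membrane supply, 2 rose and 1 fell. Wipi1, which binds PI3P on the forming autophagosome and lies on chromosome 11 from 109464156 to 109502793, had 10.5, 9.54 and 12.5 CPM in control and 20.3, 25.7 and 21.9 CPM in stimulated libraries. Each stimulated library was well above each control library. For Wipi1 the log2FC was 1.06 (SE 0.14), at an adjusted p of 0.00025 (edgeR's quasi-likelihood test). Its relative Wipi2 had a log2FC of 0.13. The FPKM ratio of Wipi1 to Wipi2 was 0.462 ± 0.072 in control and 0.879 ± 0.121 in stimulated libraries (SD, n = 3 each).

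Atg2b, on chromosome 12 from 105579795 to 105651569, encodes a protein that carries lipids from the endoplasmic reticulum to the growing membrane. It had 29.9, 25.2 and 27.7 CPM in control and 46.6, 33.5 and 38.9 CPM in stimulated libraries. The groups did not overlap, though stimulated library 1 stood above the other two. Atg2b had a log2FC of 0.52 (SE 0.13), at an adjusted p of 0.013 (edgeR's quasi-likelihood test). The call was lost under the same 5 alternatives as that of Atg13, and over all 16 its adjusted p went from 0.0017 to 0.14, the latter by limma on log2(FPKM + 1). Its paralog Atg2a had a log2FC of 0.01, and the FPKM ratio of Atg2b to Atg2a went from 0.278 ± 0.012 to 0.395 ± 0.021 (SD, n = 3 each) without overlap. Vmp1, a lipid scramblase of the endoplasmic reticulum on chromosome 11 from 86474269 to 86574853, had 124, 131 and 128 CPM in control and 89.7, 94.1 and 96.4 CPM in stimulated libraries. The replicates lay close together and the groups far apart. Its log2FC was -0.45 (SE 0.08), at an adjusted p of 0.0015 by edgeR's quasi-likelihood test. Atg9a, the scramblase of the vesicles that seed the membrane, had -0.14, with every stimulated library below the controls but no call.

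**Figure D2:**
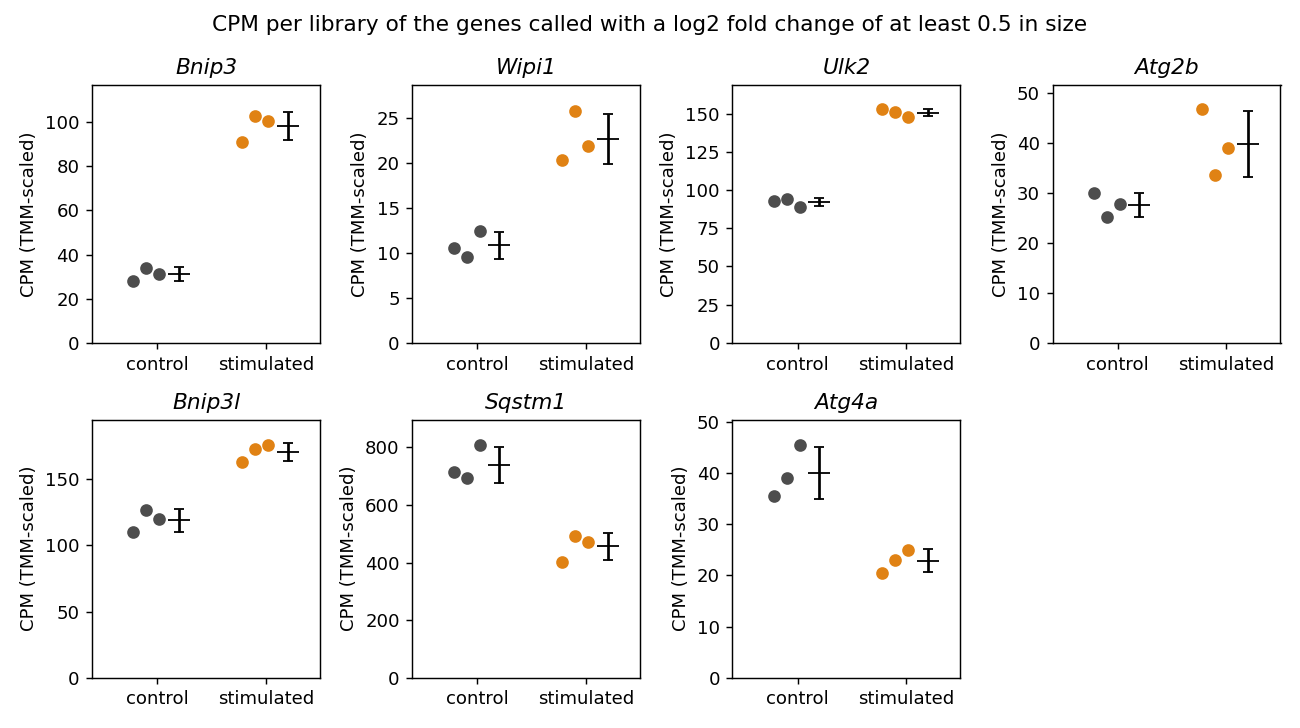
CPM after TMM scaling (y axis, starting at 0) in each of the 3 control (grey) and 3 stimulated (orange) libraries for the 7 autophagy genes called with a log2FC of at least 0.5 in size; the horizontal mark and bars are mean and SD. No gene's groups overlap, and Bnip3 shows the largest fold change, from 31.2 ± 3.02 to 98.1 ± 6.23 CPM.

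Of the 11 genes of the conjugation systems, 9 were not called, 1 rose and 1 fell. Atg4a, on chromosome X from 139854582 to 139947293, encodes a cysteine protease that trims ATG8 proteins before conjugation and frees them from the membrane afterwards. It had 35.5, 39 and 45.5 CPM in control and 20.5, 23.0 and 25.1 CPM in stimulated libraries. All stimulated libraries were below all controls, and the control libraries spread more than the stimulated ones. At -0.81 (SE 0.12), Atg4a had the lowest log2FC of the 40 genes, at an adjusted p of 0.00062 (edgeR's quasi-likelihood test). The 3 other ATG4 proteases were not called, Atg4b with a log2FC of -0.04, Atg4c with 0.17 and Atg4d with -0.16. The FPKM ratio of Atg4a to Atg4b went from 1.28, 1.26 and 1.43 in control to 0.752, 0.783 and 0.795 in stimulated libraries, so that the ratio fell past 1. Its place against 1 rests on the gene lengths behind the FPKM values. Atg4a shares 66 exon bases with Psmd10 on the other strand. Psmd10 had 1.11 times the mean count of Atg4a and was itself called lower, with a log2FC of -1.0. Atg4a-ps, 99.3% identical to Atg4a over 2115 bases, is not listed under that symbol in the count table.

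Atg10, the E2-like enzyme that hands ATG12 to ATG5, had 8.96, 8.32 and 8.13 CPM in control and 10.4, 10.7 and 11.7 CPM in stimulated libraries. The groups did not overlap, and the lowest stimulated library stood not far above the highest control. Its log2FC was 0.37 (SE 0.12), at an adjusted p of 0.041 (edgeR's quasi-likelihood test). It was called in 4 of 16 alternatives, over which the adjusted p went from 0.025 (edgeR with the gene length trend removed) to 0.20 (limma), and was lost when any 1 library but stimulated replicate 1 was left out. It shares 114 exon bases with the ribosomal protein gene Rps23, whose count was 19.7 times as high and whose log2FC was 0.06. The E1-like enzyme Atg7 had 0.17, the ubiquitin-like Atg12 0.24, its acceptor Atg5 0.09 and the E2-like Atg3 -0.26, none of them called. Atg12 and Atg3 were called under 5 and 6 of the 16 alternatives, in those directions. Atg16l1 and Atg16l2, which encode the part that places the conjugate on the membrane, had -0.01 and 0.16 as their log2FC, and the FPKM ratio of the former to the latter went from 4.06 ± 0.25 to 3.63 ± 0.07 (SD, n = 3 each).

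Among the 5 ATG8 genes, Map1lc3b rose and Gabarapl1 fell. Per transcript length Gabarap was the most abundant of all 40 genes, with 287 ± 29.3 FPKM in control and 284 ± 43.4 FPKM in stimulated libraries (SD, n = 3 each), while Atg4c was the least with 1.56 ± 0.13 and 1.59 ± 0.07. Gabarapl1, on chromosome 6 from 129509725 to 129520544, had 121, 132 and 137 CPM in control and 80.4, 113 and 97.4 CPM in stimulated libraries. All stimulated libraries were below the controls, by a margin set by stimulated library 2. The log2FC was -0.43 (SE 0.12), at an adjusted p of 0.024 (edgeR's quasi-likelihood test). The call was lost without control replicate 2, control replicate 3 or stimulated replicate 3, and over the 16 alternatives the adjusted p went from 0.0017 to 0.091 by edgeR. Map1lc3b had 139, 148 and 155 CPM in control and 158, 209.5 and 190.2 CPM in stimulated libraries. Its lowest stimulated library was close to its highest control library. The log2FC was 0.34 (SE 0.11), at an adjusted p of 0.044 (edgeR's quasi-likelihood test). It was called in 7 of 16 alternatives and, as libraries were left out in turn, only without stimulated replicate 1, with an adjusted p from 0.00057 (edgeR) to 0.17 (limma).

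Map1lc3a, the gene of LC3A, had 12.7, 12.2 and 10.9 CPM in control and 11.6, 20.9 and 15.0 CPM in stimulated libraries, so the groups overlapped. It was not called, with a log2FC of 0.41 (SE 0.19) and an adjusted p of 0.15 by edgeR's quasi-likelihood test. Gabarap and Gabarapl2 had log2FC of 0.13 and 0.04. For all 5 ATG8 genes the lowest stimulated library was stimulated library 1. Deviations of the 40 genes from their group mean followed gene length in that library with a Spearman correlation of 0.76, and in stimulated library 2 of -0.65 (n = 40 genes, which share each library's preparation), while the ATG8 genes include the shortest of the 40. Over all 14618 genes tested the correlations in these 2 libraries were 0.45 and -0.44. In control libraries 1 and 3 the 40 genes had 0.50 and -0.45. Deviations from a group mean are tied to one another, so correlations within a group are not independent. Without stimulated replicate 1, Map1lc3a was called with an adjusted p of 0.0041, and without stimulated replicate 2 it had 0.50, the lowest and highest of its alternatives (edgeR's quasi-likelihood test). The part of this length trend in the ATG8 values was not tested beyond its removal, after which the log2FC of Map1lc3a stood at 0.41, its adjusted p by the same edgeR test being 0.052.

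Within a library, the makeup of the ATG8 pool can be read without any scaling between libraries. The 5 genes summed to 489 ± 36.2 FPKM in control and 468 ± 68.2 FPKM in stimulated libraries (SD, n = 3 each), a difference smaller than the spread. Unlike the shares, these sums depend on scaling between libraries, and FPKM values are not TMM-scaled. Gabarapl1 made up 15.8%, 15.3% and 14.7% of that sum in control and 11.0%, 10.6% and 10.6% in stimulated libraries. Map1lc3b made up 12.5%, 11.9% and 11.5% in control and 15.0%, 13.6% and 14.4% in stimulated libraries. The FPKM ratio of Map1lc3b to Gabarapl1 was 0.776 to 0.792 in control and 1.29 to 1.36 in stimulated libraries. Their order rests on the gene lengths behind the FPKM values, and in raw counts Map1lc3b was above Gabarapl1 in every library. Gabarap held 58.7% ± 1.89 and 60.7% ± 0.45, Gabarapl2 11.7% ± 0.46 and 11.3% ± 0.21, and Map1lc3a 2.40% ± 0.41 and 2.93% ± 0.35 (SD, n = 3 each), all with overlap between the groups.

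**Figure D3:**
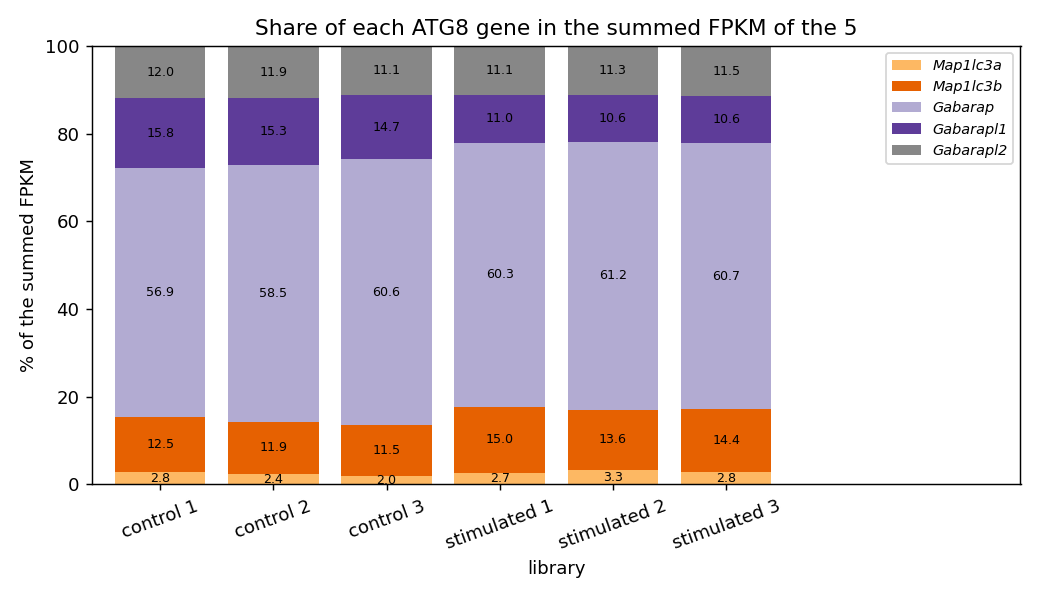
Share of each ATG8 gene in the summed FPKM of the 5 genes (y axis, percent), 1 bar for each of the 3 control and 3 stimulated libraries. The mean share of Gabarapl1 goes from 15.3% to 10.7% and that of Map1lc3b from 12% to 14.3%, while Gabarap holds 56.9% to 61.2% of the pool over the 6 libraries.

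Of the 7 cargo receptor genes, 2 rose, 1 fell and 4 were not called. Bnip3, on chromosome 7 from 138490690 to 138511253, encodes an outer membrane protein of mitochondria that binds LC3 and marks them for removal, and it is a known target of hypoxia-inducible factors. It had 28.1, 34.1 and 31.3 CPM in control and 91.1, 103 and 100.5 CPM in stimulated libraries. Every stimulated library was far above every control. Its rise was 3.14-fold, a log2FC of 1.65 (SE 0.10) and the highest of the 40 genes, and the adjusted p was 1.6e-06 (edgeR's quasi-likelihood test). Its near relative Bnip3l (NIX), on chromosome 14 from 67222678 to 67246356, had 109.8, 127 and 120.3 CPM in control and 163, 173 and 176 CPM in stimulated libraries. These groups did not overlap either. Bnip3l had a log2FC of 0.52 (SE 0.09), at an adjusted p of 0.0012 (edgeR's quasi-likelihood test).

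The FPKM ratio of Bnip3 to Bnip3l was 0.641, 0.675 and 0.652 in control and 1.40, 1.49 and 1.43 in stimulated libraries, so the ratio rose past 1. In raw counts Bnip3 stayed below Bnip3l in every library, with 1923 and 3446 in stimulated library 1. Which transcript was the more abundant rests on the gene lengths behind the FPKM values and is not settled here. No exon of another listed gene that was found by symbol in GENCODE M39 overlaps either gene. Several pseudogenes resemble Bnip3, among them Gm16439, 98.8% identical over 519 bases, which is not listed under that symbol in the count table. Transcripts of Cep290 and Rlig1, which are listed, hold stretches of 347 and 388 bases that are 95.1% identical to Bnip3, and these genes had 14.0% and 10.7% of its mean count. For Bnip3l, the pseudogene Bnip3l-ps, 99.3% identical to Bnip3l over 608 bases, had a mean of 231 counts, or 6.91% of that of Bnip3l. Reads that fit both copies may have been counted for either.

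Sqstm1, on chromosome 11 from 50089572 to 50107684, encodes p62, which gathers ubiquitin-marked cargo, is itself degraded by autophagy and is a target of NRF2. It had 715, 694 and 809.9 CPM in control and 403, 494 and 472 CPM in stimulated libraries. All stimulated libraries lay below all controls. Sqstm1 had a log2FC of -0.70 (SE 0.11), at an adjusted p of 0.000835 (edgeR's quasi-likelihood test). Per transcript length its level went from 132 ± 6.05 to 73.9 ± 5.45 FPKM (SD, n = 3 each), second to Gabarap in both groups. The other ubiquitin-binding receptors were not called, Nbr1 and Optn each having a log2FC of 0.13 and Tax1bp1 one of -0.01, and neither was Calcoco1, a receptor for endoplasmic reticulum and Golgi, with 0.06.

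**Figure D4:**
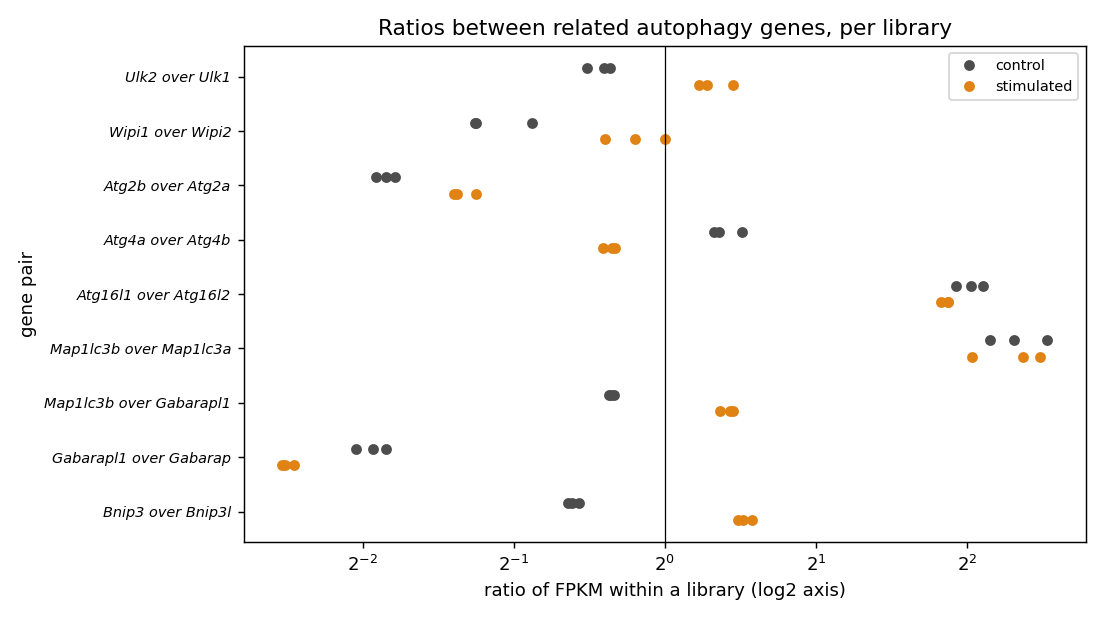
Ratio of FPKM between related autophagy genes in the same library (x axis, log2 scale, with a line at 1) for 9 pairs in 3 control (grey) and 3 stimulated (orange) libraries. The pairs were chosen after their values were seen, and in 8 of the 9 the groups do not overlap. Ulk2 over Ulk1, Map1lc3b over Gabarapl1 and Bnip3 over Bnip3l cross from below to above 1, while Atg4a over Atg4b crosses the other way. The place of a ratio against 1 depends on the gene lengths behind FPKM, which are not given in the sources used here.

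Over all 16 alternative analyses, 7 of the 13 calls were kept in every one, those of Ulk2, Wipi1, Vmp1, Atg4a, Sqstm1, Bnip3 and Bnip3l. None of the 13 called genes changed sign in any of them. Of the 27 genes not called, 21 were not called in any alternative, and 6 were in at least 1, namely Atg101, Atg9a, Atg3, Atg7, Atg12 and Map1lc3a. Exons of 19 of the 40 genes overlap those of another listed gene, in all but Vmp1 (Mir21a) on the other strand only, and the strand setting of the counting is not given in the sources used here. Such overlaps could be sought only for the 35087 of the 41079 listed genes found by symbol in GENCODE M39. Among the 7 genes kept in every alternative, Ulk2, Bnip3 and Bnip3l have no such overlap. The overlap of Atg4a with Psmd10 is given above. Wipi1 shares 77 bases with Arsg, which had a log2FC of 0.71 and 0.31 times its mean count, and Sqstm1 shares 1412 with Mrnip, which had 0.003 times its mean count, and 141 with Mgat4b, which had 0.19 times its mean count and a log2FC of -0.27. Vmp1 shares 176 bases with Ptrh2, which had 0.082 times its mean count and a log2FC of -0.25, and 92 with Mir21a, which had 0.010 times its mean count. The log2FC of Mgat4b and Ptrh2 were not called. Of other called genes, Gabarapl1 shares 1146 of its 3698 exon bases with 1700101I11Rik, which had 0.11 times its mean count and a log2FC of -0.38, not called. Atg2b shares 482 bases with Gskip, which had 0.71 times its mean count and a log2FC of 0.28. Map1lc3b shares 68 with Zcchc14, which had 0.19 times its mean count and a log2FC of 0.32.

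Upstream and downstream of the machinery, other genes were taken from lists written with earlier results of these data known. Of 24 tested genes of mTORC1 (the nutrient-sensing kinase that holds ULK in check) and its regulators, 2 rose and 4 fell, and with library size alone 0 rose and 8 fell. The 25% called lay below the 29.8% of all genes tested. Without control replicate 1 or control replicate 3, 0 rose and 2 fell in this list by edgeR. Without control replicate 2 or stimulated replicate 3 the counts were 2 and 2, and without stimulated replicate 2 they were 1 and 3. Sesn1 and Deptor, both known to restrain mTORC1, fell by 1.22 and 0.92 on the log2 scale. Rptor and Mlst8, genes of mTORC1 subunits, fell as well, with log2FC of -0.36 and -0.34. Ddit4, another inhibitor of mTORC1, and the lysosomal GTPase Rragd rose by 0.86 and 0.38. Ddit4 was low in level, with means of 1.81 CPM in control and 3.28 CPM in stimulated libraries. Of 7 tested genes of AMPK, the kinase that activates ULK1, and of its own kinase LKB1, edgeR and DESeq2 each called 0, and 1 was higher at an unadjusted p under 0.05. Of 8 transcription factor genes of autophagy and the lysosome, 4 fell, or 50% beside 15.2% of all genes tested, and 0 rose by edgeR and by DESeq2, while 2 were higher at an unadjusted p under 0.05. The 4 are the MiT family, with log2FC of -1.43 for Tfec, -0.47 for Mitf, -0.37 for Tfeb and -0.26 for Tfe3, and between 1 and 4 genes of the list were called lower over the 16 alternatives. The lowest counts were 1 without control replicate 1, control replicate 2 or stimulated replicate 3, and 2 without control replicate 3. In the other direction, edgeR called 1 gene of the list higher with the replicate block and 1 without stimulated replicate 3.

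Of 17 genes for fusion of the autophagosome with the lysosome, 1 rose and 3 fell (3 and 5 without stimulated replicate 1, 2 and 3 without control replicate 1), among them the SNARE genes Ykt6 (log2FC 0.58) and Vamp8 (-0.68) and the RAB7 effector Rilp (-0.78). The share called was 23.5%, below the 29.8% of all genes tested. Of 11 other core genes, 2 rose and 3 fell, a share of 45.5%, with Bcl2, whose product binds beclin 1, at 1.15, the PI3-kinase complex subunit Nrbf2 at 0.70, and the interferon-induced Irgm1 and Trim30a at -0.98 and -0.61. Of 14 tested genes of other selective autophagy, 4 rose and 1 fell, a share of 35.7% against the same 29.8%. These included Stbd1, a receptor for glycogen, at 2.05, Retreg1, a receptor for endoplasmic reticulum, at 0.99, and Ncoa4, the ferritin receptor, at -1.53. Stbd1 was low in level, with means of 1.64 CPM in control and 6.79 CPM in stimulated libraries. Calcoco2 had 0 counts in all 6 libraries and was not tested.

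Because Bnip3 is a target of hypoxia-inducible factors, other genes of that response were set beside it. Of 18 tested, 13 rose, beside 14.7% of all genes, and 0 fell by edgeR and by DESeq2, also at an unadjusted p under 0.05, with a median log2FC of 0.51. The highest were Egln3, which marks the factor for degradation, at 2.75 and the glycolytic enzyme Hk2 at 1.41. Egln3 had 17.3, 16.1 and 18.0 CPM in control and 103, 123 and 119 CPM in stimulated libraries, and the groups were far apart. Not called were Pgk1 (-0.03), Car9 (0.26), Egln1 (0.22), P4ha2 (0.23) and Adm (-0.43), and over the 16 alternatives between 9 and 14 of the 18 were called higher. Oxygen was not measured, and its part in these values was not tested.

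**Figure D5:**
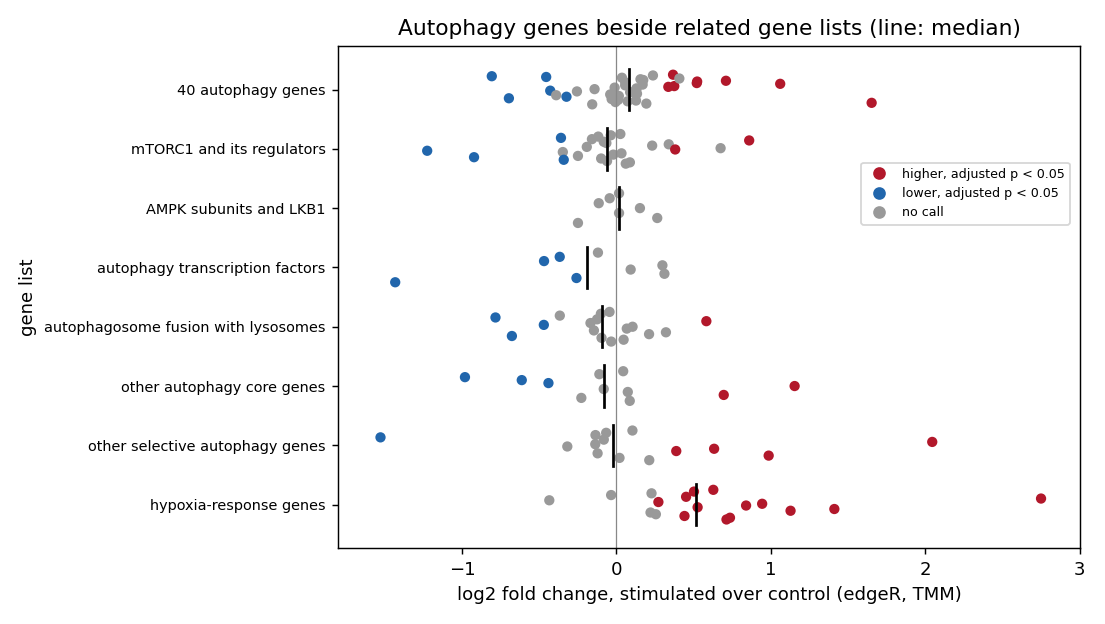
Log2 fold change, stimulated over control (x axis), of the tested genes of 8 lists (y axis); each point is 1 gene, coloured by its call, and the black line is the median of the list. The 40 autophagy genes centre near 0 with calls on both sides, as do most related lists, while the transcription factors have calls below 0 only and the hypoxia-response genes above 0 only.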

How the data were processed

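RNA-seq of 6 libraries (3 control, 3 stimulated) was used. The authors aligned the read pairs with HISAT2 against mm39, and deposited raw counts per gene from featureCounts together with FPKM values of the same genes; versions, annotation and strand setting are not given in the sources used here. Groups and replicate numbers came from the labels. In R 4.3.3 the deposited counts were filtered with filterByExpr, scaled with TMM factors and compared with the quasi-likelihood test of edgeR 4.0.16 over 14618 genes. Calls needed a Benjamini-Hochberg adjusted p under 0.05. The standard error (SE) is the size of the log2 fold change divided by the square root of F. FPKM values served for levels between genes and for ratios within a library, and are not TMM-scaled.

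The 40 members, the other gene lists and their tests were chosen with earlier results of these data known. By a fixed rule, values per library are given for genes called at a log2 fold change past 0.5 in size and for the extremes of each role, and at most 2 called genes each way are named from other lists. Map1lc3b, the gene pairs, Rptor and Mlst8, the full set of 4 MiT genes, the hypoxia-response genes given without a call, and Calcoco2 were added after their values were seen. Coordinates are from GENCODE M39 on GRCm39, the build of mm39, and promoters from RefSeq on GRCm38.p6, and the 2 builds were never mixed.

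Alternatives were DESeq2 1.42.0, library size alone, relative log expression factors, no filter, at least 10 counts in every library, a replicate block, each library left out, and limma 3.58.1 on log2(FPKM + 1), log2(FPKM + 0.1) and, among genes of mean FPKM 1 or more, log2(FPKM + 1). Removal of a gene length trend was added after the data had been seen. Gene length for that step and for the correlations was read from the ratio of counts to FPKM. Steps were tested on simulated data, which held neither the shift in composition nor the gene length trend of these libraries. That test therefore does not bear on either. Replicates differed by more than counting noise. Total counts of 20628148 to 27261839 limit precision in genes of few counts.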

Additional observations from a re-analysis of the deposited data

How the results depend on the processing

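Against 8 autophagy genes higher and 5 lower, library size alone gave 4 and 8, limma on log2(FPKM + 0.1) 4 and 8, limma on log2(FPKM + 1) 4 and 7, and the latter on genes of mean FPKM 1 or more 4 and 8. With a library left out, 4 to 11 were higher and 4 to 6 lower, the lowest count of higher genes (4) being that without control replicate 2. The median log2 fold change, 0.081, became -0.049 with library size alone and -0.057, -0.061 and -0.057 in these limma fits in the order log2(FPKM + 1), log2(FPKM + 0.1) and mean FPKM 1 or more. It was 0.060 with no filter, 0.086 with at least 10 counts in every library, 0.057 with the gene length trend removed, and 0.075 to 0.0998 with a library left out. These scalings shift all genes, whose median was then -0.12 with library size alone and between -0.087 and -0.13 with limma. In each of these 4 fits the median of the 40 genes was above that of all genes tested. A gene length trend removed gave 9 higher and 7 lower, and DESeq2 and relative log expression factors 8 and 5. In single genes, 17 of the 27 not called changed sign in at least 1 alternative and 0 of the 13 called did. The replicate block gave 8 higher and 6 lower. Same-numbered libraries were not paired by any label, and their deviations correlated at 0.27, -0.01 and 0.18, so the block is given for its count only, and not every library correlated best with its own number. With 3 libraries against 3, exact permutation of one gene cannot go below p = 0.1, and Map1lc3a and Atg101 had the largest standard errors of the 40 genes. The cause of the changes between settings was not tested.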
